A study of Danio rerio with 6 samples.

Results

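The lens crystallin genes are the genes whose proteins fill the transparent fibre cells of the eye lens. Their transcripts were followed here in RNA of cells that had been sorted as olfactory sensory neurons from zebrafish larvae. Members were chosen by gene symbol alone: alpha, beta and gamma crystallins, and the lens genes named mip, bfsp, lim2 and lgsn. The rule found 60 members among 32469 measured genes, of which 20734 carried a symbol. There were 2 alpha, 13 beta and 35 gamma crystallins and 10 genes of the fibre membrane and cytoskeleton. The symbol table holds 67 such names, and the 7 without a row of counts were not analysed here.

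The comparison was of 3 gallein samples with 3 control samples, all from larvae carrying OMP-Gal4 and UAS-GCaMP1.6, in which the promoter of an olfactory marker gene drives a green fluorescent calcium sensor. Gallein, a small molecule inhibitor of the beta-gamma subunits of G proteins, was given at 100 µM from between 16 and 20 hours post fertilization, and the controls received DMSO. Medium and drug were renewed every 24 hours. At 5 days post fertilization the heads were dissected and dissociated, and fluorescent cells were sorted, so lens cells were not the target of the sort. The labels name biological replicates but do not say whether they came from separate clutches or how many larvae each held.

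Lens fibre cells make crystallins in very large amounts and then lose their nuclei and organelles. Alpha crystallins are small heat shock proteins that keep other proteins soluble. Beta and gamma crystallins are related structural proteins built from Greek key folds, the beta ones joining into oligomers and the gamma ones staying single. Fish have an expanded group of methionine-rich gamma M crystallins, which pack tightly in the dense lens of aquatic animals.

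Gene counts per library ranged from 30822664 to 40295728. Between 9.55% and 22.3% of each library's total, highest in gallein replicate 2, was of reads that aligned in more than 1 place and were given to no gene. The gamma M genes are known as close copies of each other, and how many such reads came from them was not measured, so values of single copies are to be taken as uncertain. Gallein replicate 2 stood apart from the other libraries in one more way, with 4 counts of OMP, the marker behind the sort, against 126 and 184 in gallein replicates 1 and 3 and 339 to 531 in the controls. Levels are given as CPM, the counts per 1000000 after TMM scaling between libraries. CPM takes no account of transcript length, so levels were compared between libraries and not between genes. In such bulk samples fewer lens cells and less RNA per cell cannot be told apart.

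Lens transcripts were present in every library, at 1.19%, 0.457% and 0.460% of gene counts in gallein replicates 1 to 3, against 0.760%, 0.344% and 0.810% in control replicates 1 to 3. Of the 60 members, 39 had at least 10 counts in every library. Another 4 had no read in any library: CRYGS (ENSDARG00000041171), crygs3, crygs4 and crygm1. Over the 6 libraries together, a count of 0 allows a level of up to 0.0133 CPM (3 counts), a limit that covers counting error only. A further 13 members held between 1 and 86 counts in all and were too low for the test. The other 43 members were tested: 1 alpha, 10 beta, 23 gamma and 9 membrane and cytoskeleton genes.

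Summed over its members and scaled by TMM, each class had a higher mean log2 level in gallein samples, but with spike-in scaling each mean was lower, and in each class the gallein and control libraries overlapped. The beta crystallins summed to 4066, 3414 and 1889 CPM in gallein replicates 1 to 3, against 2767, 872 and 1256 CPM in control replicates 1 to 3. Control replicate 1 lay above gallein replicate 3, and the difference of the mean log2 sums was 1.04, with a pooled SD between replicates of 0.73. With 1 library left out it ran from 0.67 (without control replicate 2) to 1.52 (without control replicate 1). The gamma crystallins summed to 12596, 3535 and 1697 CPM in gallein replicates, against 4328, 1291 and 5136 CPM in controls. Here the log2 difference of 0.47 was well within the pooled SD of 1.29, and it was -0.32 without gallein replicate 1 and -0.16 without control replicate 2. Gallein replicate 3 was the second lowest library for gamma crystallins, while control replicate 3 was the second highest.

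The membrane and cytoskeleton genes summed to 572, 188 and 255 CPM in gallein replicates, against 169, 203 and 103 CPM in controls, a log2 difference of 0.99 with a pooled SD of 0.69. Gallein replicate 2 lay below control replicate 2. Without gallein replicate 1 the log2 difference was 0.52. No p-value is given for these sums, since the members were chosen as a list. The sign of the differences depended on the scaling: with spike-in totals they were -0.75 for beta, -1.32 for gamma and -0.80 for membrane and cytoskeleton genes, where the median of all genes tested was itself -1.67. By library size alone they were 0.42, -0.15 and 0.37, where the median of all genes was -0.49.

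**Figure D1:**
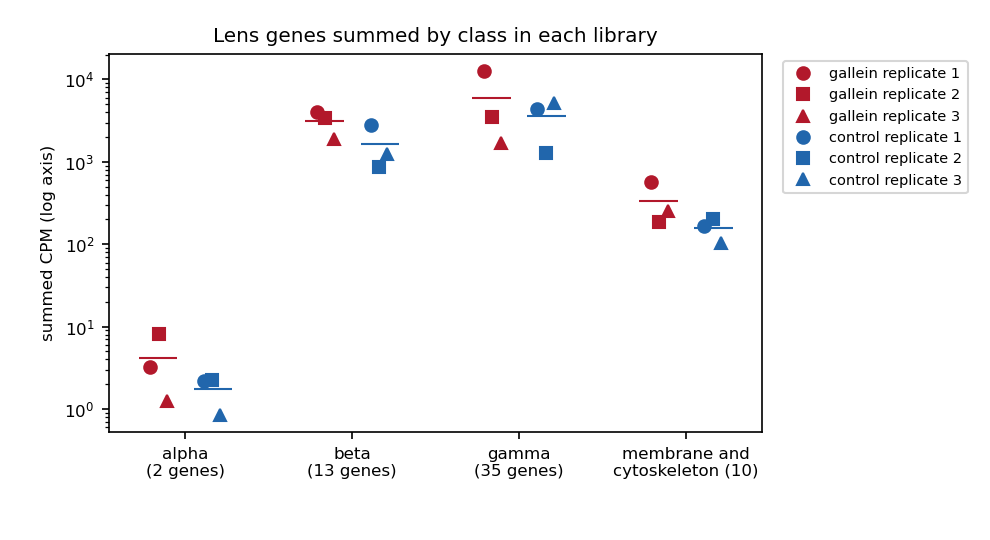
Summed level of the alpha, beta, gamma and membrane and cytoskeleton genes in each library, in CPM on a log axis, with gallein samples in red and controls in blue. Each point is 1 library and each bar the mean of 3. In every class the red and blue points overlap, and gallein replicate 1 stands highest for gamma crystallins at 12596 CPM.

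Among the alpha crystallins, only CRYAA (ENSDARG00000053502), the lens chaperone of the family, was measured above a trace. It stood at 3.27, 8.04 and 1.25 CPM in gallein replicates 1 to 3, against 2.16, 2.22 and 0.852 CPM in control replicates 1 to 3. The highest value belonged to gallein replicate 2, and the groups overlapped. The log2 fold change was 1.26 ± 0.99 (SE; adjusted p = 0.838 by edgeR), and 0.37 without gallein replicate 2. CRYAB (ENSDARG00000042621), an alpha B gene, had 2 counts in all, both in controls. Another gene of this name had no row of counts and was not measured.

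Of the beta crystallins, 8 of the 10 tested had a positive and 2 a negative log2 fold change, with a median of 0.40. Over all genes tested the median was 0.07 and 47.3% were negative. CRYBB1 (ENSDARG00000068507), which encodes a basic beta crystallin, was at 2423, 1357 and 966 CPM in gallein replicates, against 1590, 398 and 382 CPM in controls. Only control replicate 1 reached into the gallein range, and the log2 fold change was 1.00 ± 0.99 (SE; adjusted p = 0.884 by edgeR). It was 2.04 without control replicate 1 and 0.55 without gallein replicate 1. CRYBA4 (ENSDARG00000024548), an acidic beta crystallin, was at 865, 509 and 329 CPM in gallein and at 504, 184 and 526 CPM in controls, with overlapping groups and a log2 fold change of 0.49 ± 0.89 that was 0.047 with gallein replicate 1 left out and 0.76 with gallein replicate 3 left out.

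The genes crybb1 and cryba4 are next to each other in the RefSeq gene table (assembly GRCz12tu). The values were 2.80, 2.66 and 2.94 CRYBB1 counts per CRYBA4 count in gallein replicates, against 3.16, 2.16 and 0.726 in controls. Control replicate 3 was apart from the other libraries, low in CRYBB1 and not in CRYBA4. The ratios of other neighbouring beta genes moved more widely. There were from 0.0193 (gallein replicate 2) to 0.246 (control replicate 2) crybb1l1 counts per cryba1l1 count. For cryba1l2 per crybb1l2 count the values ran from 0 to 0.276 in the same libraries. Genes that are not neighbours were not compared in this way, so no ratio can be tied to being neighbours.

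Another beta member, cryba1l1 (ENSDARG00000032929), was high in 1 gallein library, with 376, 1308 and 221 CPM in gallein replicates, against 371, 116 and 181 CPM in controls. It took 38.3% of all beta crystallin counts in gallein replicate 2 and between 9.24% and 14.4% in the other 5 libraries. Its log2 fold change of 1.51 ± 1.00 (SE; adjusted p = 0.805 by edgeR) was 0.42 without gallein replicate 2. CRYBA1 (ENSDARG00000041141) showed a still steeper excess: 102 CPM in gallein replicate 1, 0.433 and 1.46 CPM in gallein replicates 2 and 3, and 1.86, 1.40 and 0.391 CPM in controls. The log2 fold change of CRYBA1 was 4.83 ± 1.75 (SE; adjusted p = 0.756 by edgeR) and changed sign, to -0.35, without gallein replicate 1.

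The beta gene crybb1l2 (ENSDARG00000016793) was the single member whose gallein samples all lay above all controls, as did 3.81% of all genes tested. It was at 59.8, 67.0 and 191 CPM in gallein replicates, against 44.7, 19.4 and 15.3 CPM in controls. Gallein replicate 3 was far above the others, and the gap between the lowest gallein and the highest control library was narrow. The log2 fold change was 2.00 ± 0.84 (SE; adjusted p = 0.756 by edgeR), and it ran from 1.26 to 2.63 with 1 library left out. The neighbouring gene in the RefSeq table, cryba1l2 (ENSDARG00000014803), had the lowest log2 fold change among members, -1.53 ± 1.39 (adjusted p = 0.869 by edgeR), which was -2.44 without gallein replicate 3 and -0.76 without control replicate 2. Its levels were low, at 1.06, 0 and 1.95 CPM in gallein and 1.94, 5.35 and 1.47 CPM in controls, and the groups overlapped.

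For cryba1b (ENSDARG00000053875) the values were 97.2, 89.0 and 29.8 CPM in gallein replicates and 106, 51.6 and 35.4 CPM in controls, with a log2 fold change of 0.16 ± 0.79. The remaining 3 tested beta genes, crybb1l1 and the 2 genes named CRYBA2, lay between 23.8 and 90.0 CPM in gallein and between 16.0 and 55.3 CPM in controls. Their log2 fold changes ran from -0.27 to 0.30. CRYBB2, CRYBB3 and crybb1l3 were below the filter.

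The gamma crystallin counts came almost wholly from the crygm2d genes, numbered copies of 1 gamma M type. The 18 measured copies held 98.9%, 94.3% and 92.9% of gamma crystallin counts in gallein replicates, against 94.4%, 94.3% and 98.1% in controls. In the RefSeq gene table they lie in a run of 31 adjacent gamma crystallin genes, 26 of which are measured members. All 18 passed the filter. Their median level was 287, 130 and 65.3 CPM in gallein replicates 1 to 3, against 164, 59.5 and 182 CPM in control replicates 1 to 3. The libraries of a group differed from each other more than the groups did.

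For 13 of the 18 the highest library was gallein replicate 1, and for the other 5, which are crygm2d3, crygm2d10, crygm2d15, crygm2d16 and crygm2d18, it was control replicate 3. Control replicate 2 was the lowest library for 15 copies and gallein replicate 3 for 3. Between the lowest and the highest library the level of a copy spanned a median of 6.18-fold, and 13 of the 18 spanned at least 4-fold. Set against the median of the 18 copies in the same library, the span was a median of 2.64-fold and was narrower for 17 of the 18. That median was taken from these same copies, so copies near it are steady in part by construction. No other gene set was compared in this way. Steadiest was crygm2d5 (ENSDARG00000069792). It reached 427, 202 and 94.0 CPM in gallein replicates and 223, 79.9 and 302 CPM in controls, yet between 1.34 and 1.66 times the median copy in all 6 libraries. Likewise crygm2d4 kept between 0.759 and 1.13 times the median copy.

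Against this shared pattern a few copies stood out in a single library. The widest departure was that of crygm2d7 (ENSDARG00000076572), at 5751, 353 and 123 CPM in gallein replicates 1 to 3, against 282, 84.6 and 309 CPM in control replicates 1 to 3. It held 46.2% of crygm2d counts in gallein replicate 1 and between 6.13% and 10.6% in the other 5 libraries. Relative to the median copy it was at 20.0 in gallein replicate 1 and between 1.42 and 2.72 elsewhere. Both deposited files of gallein replicate 1 held it, with 80259 and 71087 counts. The files differ by little more than sampling noise and count as 1 replicate, so this is no separate check. The log2 fold change of crygm2d7 was 3.21 ± 1.45 (SE; adjusted p = 0.767 by edgeR), and 0.08 without that library. Without crygm2d7 the summed gamma level was 6845, 3182 and 1574 CPM in gallein, against 4047, 1206 and 4827 CPM in controls, a log2 difference of 0.18 instead of 0.47.

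A like excess of crygm2d3 (ENSDARG00000088823) was seen in a control library. Its levels were 660, 299 and 156 CPM in gallein replicates and 392, 129 and 1381 CPM in controls. Relative to the median copy, crygm2d3 was at 2.30, 2.31 and 2.39 in gallein and at 2.40, 2.16 and 7.60 in controls, so that 5 libraries stood close together and control replicate 3 alone was apart. Its log2 fold change of -0.77 ± 1.07 (SE; adjusted p = 0.932 by edgeR) was 0.51 without control replicate 3.

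For crygm2d18 (ENSDARG00000073750) the ratio to the median copy was 0.274, 0.565 and 0.599 in gallein and 0.466, 0.436 and 1.43 in controls, with control replicate 3 again apart. The ratio of crygm2d2 (ENSDARG00000086917) varied over libraries of both groups. Its levels were 2099, 614 and 148 CPM in gallein replicates and 668, 106 and 228 CPM in controls. Relative to the median copy crygm2d2 was at 7.31, 4.74 and 2.26 in gallein and at 4.08, 1.78 and 1.25 in controls. Its log2 fold change of 1.51 ± 1.16 (SE; adjusted p = 0.835 by edgeR) was 0.19 without gallein replicate 1 and 2.53 without control replicate 1. For crygm2d10 (ENSDARG00000087765) the levels were 466, 292 and 234 CPM in gallein and 566, 141 and 883 CPM in controls, with a log2 fold change of -0.68 ± 0.94 that was -1.14 with control replicate 2 left out and -0.10 with control replicate 3 left out.

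Of the other copies with high counts, crygm2d11, crygm2d13, crygm2d17, crygm2d20, crygm2d21 and crygm2d5 had log2 fold changes between 0.13 and 0.63. Those of crygm2d5, crygm2d11, crygm2d13 and crygm2d20 became negative without gallein replicate 1, at -0.45, -0.97, -0.69 and -0.14. The remaining 8 copies ranged from 35.8 to 266 CPM in gallein and from 11.4 to 260 CPM in controls, with log2 fold changes from -0.92 to 0.71 and overlapping groups. In all, 13 of the 18 copies had a positive and 5 a negative log2 fold change, with a median of 0.34.

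**Figure D2:**
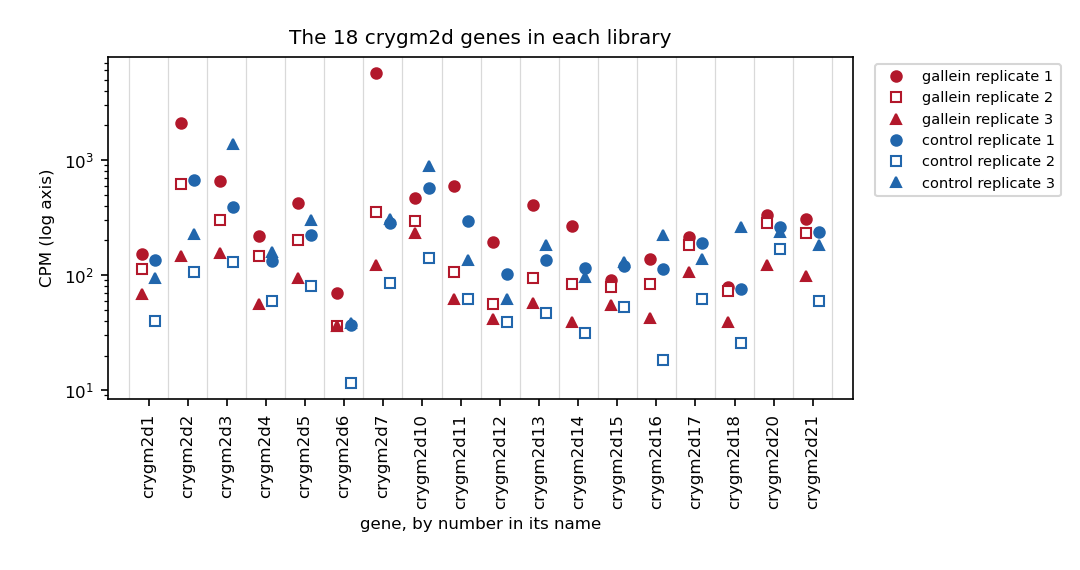
Level of each of the 18 crygm2d genes in each library, in CPM on a log axis, with gallein samples in red on the left of each column and controls in blue on the right. Many copies are high or low in the same libraries. Control replicate 2 is the lowest for 15 of them, and the highest is gallein replicate 1 for 13 and control replicate 3 for 5. Among the copies that depart from this, crygm2d7 reaches 5751 CPM in gallein replicate 1 and crygm2d3 reaches 1381 CPM in control replicate 3.

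The other gamma crystallins were 17 genes, of which 5 were tested. CRYGN (ENSDARG00000030411) is a gamma N gene, whose protein has features of both beta and gamma crystallins. Another gene of this name had no row of counts and was not measured. The measured CRYGN was at 58.1, 135 and 57.9 CPM in gallein replicates, against 138, 43.8 and 69.1 CPM in controls. The groups overlapped throughout, and the log2 fold change was -0.00 ± 0.79 (SE; adjusted p = 1.00 by edgeR). The pair of neighbours crygmx and crygmxl2 had log2 fold changes of 0.10 ± 0.76 and 1.27 ± 0.81. Their ratio moved widely, from 0.988 to 5.44 crygmx counts per crygmxl2 count in gallein libraries and from 3.48 to 7.03 in controls. For crygm5 and crygm2f the levels were at most 1.1 CPM in gallein and at most 1.11 CPM in controls. The gamma S genes, whose human counterpart is a main gamma crystallin of the adult lens, were at 0 in every library except for CRYGS (ENSDARG00000042992), with 42 counts in control replicate 1 and 1 in control replicate 2. Of crygm3, 48 of the 56 counts were in gallein replicate 1.

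Among the genes of the fibre membrane, the 2 named MIP encode aquaporin 0, the water channel of lens fibres. MIP (ENSDARG00000013963) was at 456, 76.4 and 90.9 CPM in gallein replicates, against 82.3, 107 and 43.6 CPM in controls. Apart from gallein replicate 1, the gallein libraries lay within the control range, and the log2 fold change of 1.42 ± 0.94 (SE; adjusted p = 0.806 by edgeR) was 0.11 without that library. The other MIP gene (ENSDARG00000037285) was at 59.1, 16.1 and 118 CPM in gallein and at 24.8, 62.1 and 17.8 CPM in controls, with a log2 fold change of 0.89 ± 0.88 that was 0.11 without gallein replicate 3 and 1.60 without control replicate 2. The duplicates thus had their highest value in different gallein libraries.

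LIM2 genes encode a membrane protein of fibre cell junctions. LIM2 (ENSDARG00000015445) stood at 15.8, 68.6 and 23.4 CPM in gallein and at 19.0, 17.4 and 13.7 CPM in controls. Its log2 fold change of 1.1 ± 0.75 (SE; adjusted p = 0.811 by edgeR) was 0.23 without gallein replicate 2. The related gene lim2.1 (ENSDARG00000068974) was at 14.2, 8.66 and 2.98 CPM in gallein and at 5.53, 1.52 and 0.852 CPM in controls, with a log2 fold change of 1.71 ± 0.97 that was 1.14 without gallein replicate 1 and 2.88 without control replicate 1. The other LIM2 gene (ENSDARG00000041295) was at 2.70, 0.577 and 0.596 CPM in gallein and at 1.64, 1.28 and 5.00 CPM in controls, with a log2 fold change of -1.03 ± 1.1 that was -2.17 without gallein replicate 1 and -0.18 without control replicate 3. For lim2.3 (ENSDARG00000037402) the levels were 2.70, 1.2 and 1.92 CPM in gallein and 8.38, 1.45 and 1.63 CPM in controls, with a log2 fold change of -0.97 ± 1.00. These 3 overlapped between the groups. The value of lim2.3 was 0.35 without control replicate 1.

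The beaded filament, a cytoskeleton found only in lens fibres, is built from filensin (BFSP1) and phakinin (BFSP2). BFSP1 (ENSDARG00000074919) was at 10.1, 7.17 and 12.6 CPM in gallein replicates, against 18.7, 9.86 and 9.28 CPM in controls, with a log2 fold change of -0.34 ± 0.68 that was 0.075 without control replicate 1. BFSP2 had a log2 fold change of 0.12 ± 0.97, and LGSN, which encodes lengsin, a lens protein related to glutamine synthetase, had 0.19 ± 0.90. For these 3 genes the groups overlapped.

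Many of the 43 tested members were high or low in the same libraries, and those libraries were of both groups. Gallein replicate 1 was the highest library for 20 of them and the lowest for 0. Control replicate 1 was likewise the lowest for 0 and the highest for 8, while control replicate 2 was the lowest for 22. Of all 18271 genes tested, gallein replicate 1 was the highest library for 3161 and the lowest for 3239. Control replicate 1 was the highest for 2604 and the lowest for 2076, and control replicate 2 the lowest for 2015. The crygm2d copies made up 13 of the 20 members and 15 of the 22. Control replicate 2 was the lowest for 2 of the 9 membrane and cytoskeleton genes. The median deviation of members from their own mean, on the log2(CPM + 0.5) scale, was 0.67, 0.10 and -0.47 in gallein replicates 1 to 3, against 0.48, -1.14 and -0.13 in control replicates 1 to 3. Over all genes tested these medians ran from -0.23 to 0.03. The median SD of a member between replicates, on the same scale, was 0.86 among gallein and 0.87 among control samples, against 0.96 and 0.66 over all genes tested.

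**Figure D3:**
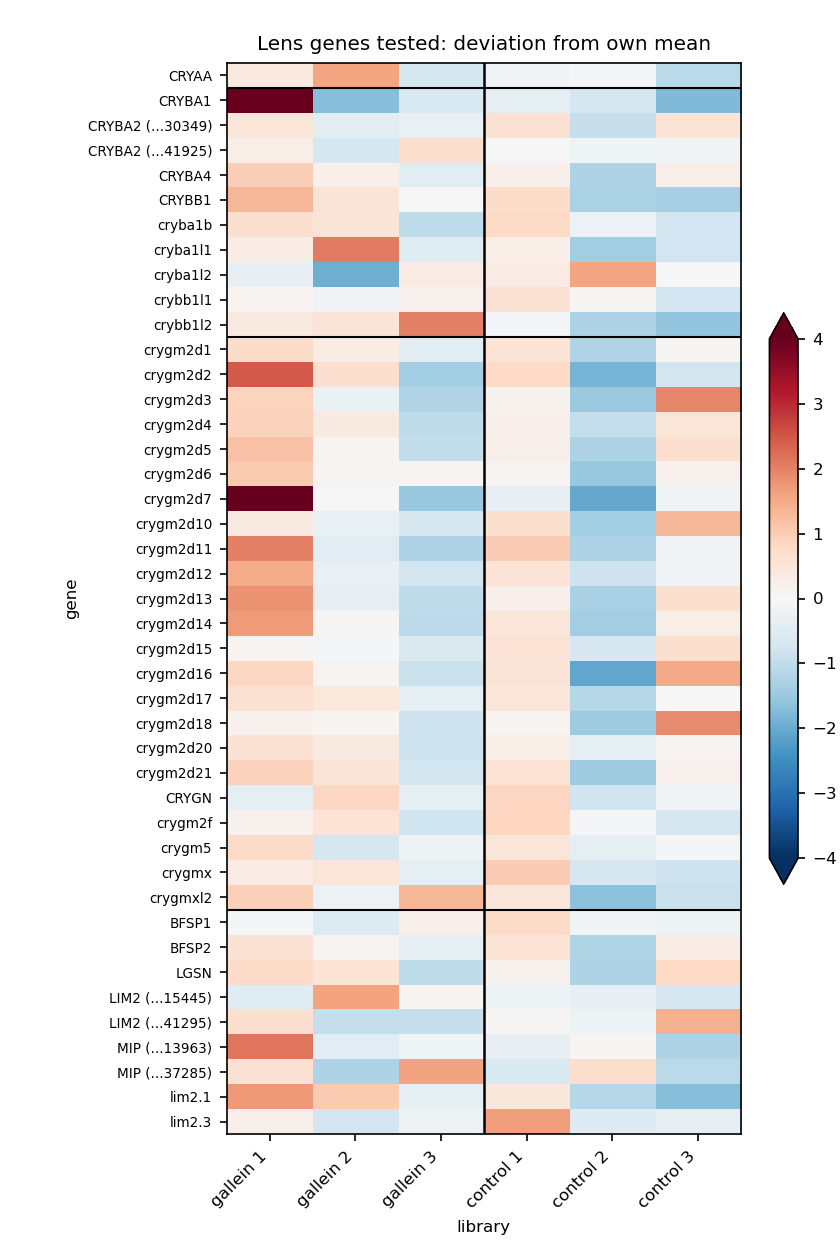
Deviation of each tested member from its own mean over the 6 libraries, as log2(CPM + 0.5), with red above and blue below, colours ending at -4 and 4, and gallein libraries left of the vertical line. Lines across part the alpha, beta, gamma and membrane and cytoskeleton genes, and shortened labels give the last digits of the gene ID. Control replicate 2 is blue for most gamma crystallins, and gallein replicate 1 is red for most genes.

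Excesses in 1 library were not more frequent among members than among other genes. In 12 of the 43 tested members (27.9%) the highest library was at least 4-fold above the median of the other 5, against 41.8% of all 18271 genes tested. At 8-fold these were 3 members (6.98%), against 19.4% of all genes. The 3 were CRYBA1, at 73.0-fold, crygm2d7, at 20.4-fold, and crygm2d2, at 9.22-fold, all in gallein replicate 1.

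By the edgeR quasi-likelihood test, 0 of the 43 members were called higher and 0 lower in gallein at a Benjamini-Hochberg adjusted p under 0.05, as were 0 (0%) of all 18271 genes in either direction. The smallest adjusted p among members was 0.756. A p that misses the threshold does not show that the members did not differ. At an unadjusted p under 0.05, 2 members (4.65%) were higher, CRYBA1 and crybb1l2, and 0 lower, against 4.03% and 2.47% of all genes. The DESeq2 Wald test called 0 members at an adjusted p under 0.05 and 0.313% and 0.226% of the genes it could adjust higher and lower. Its unadjusted p was under 0.05 for 2 of 42 members, crybb1l2 and crygm2d7, both higher, against 5.38% of genes higher and 3.56% lower. To CRYBA1 this test gave no p. With limma-voom 0 members and 0% of genes were called. Its unadjusted p was under 0.05 for 1 member (2.33%), crybb1l2, which was higher, against 1.23% of genes higher and 1.64% lower. All gallein samples lay above all controls in 1 member (3.81% of all genes) and below them in 0 (5.22%). These shares are near or under those of all genes, except for the higher share by limma-voom, which rests on 1 member.

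A negative log2 fold change was fitted for 12 of the 43 members (27.9%), against 47.3% of all genes, but the split turned with the scaling, to 30 negative by library size alone and 39 with spike-in totals. The members' median log2 fold change was 0.30, and relative to the median of all genes it was 0.23. Under the other scalings that difference was between 0.21 and 0.34. It was negative, at -0.10, without gallein replicate 1 and, at -0.15, without control replicate 2, and it ran from 0.29 to 0.70 without each of the other 4 libraries.

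**Figure D4:**
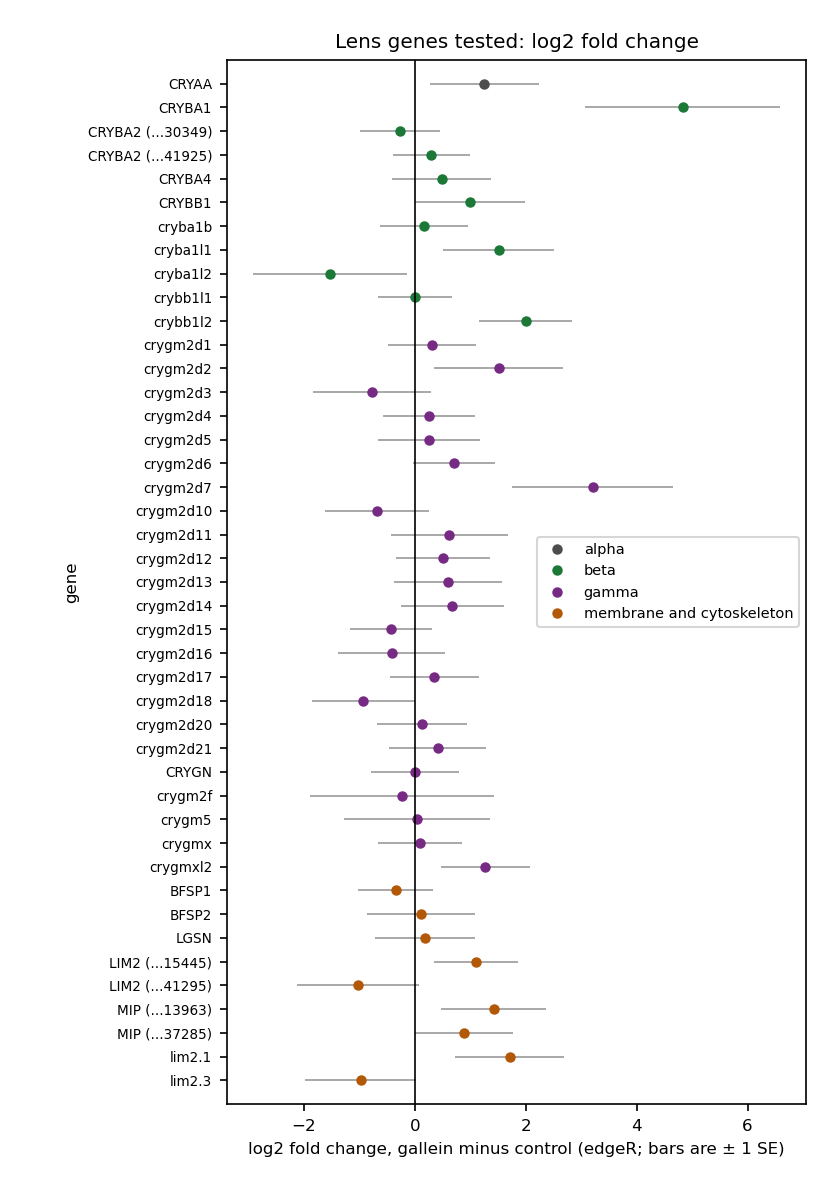
Fitted log2 fold change of each tested member, gallein minus control, with bars of 1 SE on either side and colours for the 4 classes. Most values lie between -1 and 2, and the largest, CRYBA1 at 4.83 and crygm2d7 at 3.21, rest on gallein replicate 1.

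Other genes of lens development were taken from a list of regulators, connexins and fibre proteins, 30 measured genes of which 22 were tested. By edgeR 0 were called, 12 had a positive and 10 a negative log2 fold change, and the median was 0.06. Levels of the regulators differed widely, and foxe3 and HSF4 were below the filter. The gene foxe3, a transcription factor of the lens epithelium, had 1 count in gallein replicate 3 and none elsewhere. HSF4, a heat shock factor of lens fibres, had 43 counts in gallein replicate 3 and 0 in replicates 1 and 2, against 23, 9 and 0 in control replicates 1 to 3. For pitx3, a homeobox gene of lens formation, the levels were 0.456, 1.68 and 1.25 CPM in gallein replicates, against 0.101, 0.359 and 0.414 CPM in controls. All gallein samples lay above all controls, as in 3.81% of all genes tested. Of the 22 tested genes of the list, pitx3 alone did so. Its log2 fold change was 1.94 ± 1.25 (SE; adjusted p = 0.803 by edgeR).

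PROX1 (ENSDARG00000055158), a homeobox gene needed for fibre cell elongation, was at 47.9, 15.6 and 1383 CPM in gallein replicates, against 22.4, 32.7 and 29.7 CPM in controls. Its log2 fold change of 4.09 ± 1.54 (SE; adjusted p = 0.756 by edgeR) was 0.16 without gallein replicate 3. SIX3 (ENSDARG00000054879), a homeobox gene of the eye field and forebrain, was at 3.50, 236 and 15.9 CPM in gallein, against 5.16, 2.33 and 5.53 CPM in controls. Its log2 fold change was 4.29 ± 1.40 (SE; adjusted p = 0.756 by edgeR) and 1.16 without gallein replicate 2. DESeq2 called this SIX3 gene higher (adjusted p = 0.0329), and over all alternatives its adjusted p ran from 0.0329 to 1.00. The other SIX3 gene (ENSDARG00000058008) had overlapping groups and a log2 fold change of 0.007. PROX1 and SIX3 are also known from the forebrain, and which cells their RNA came from was not tested.

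HSPB1 and CELF1, also with high counts in that list, had log2 fold changes of -1.07 and -0.38. HSPB1, a small heat shock protein gene, was at 190 CPM in control replicate 3 and between 20.4 and 67.7 CPM elsewhere, and its value was 0.72 without that library. PAX6 (ENSDARG00000045936), the homeobox gene of eye formation, was at 4.79, 1.30 and 5.77 CPM in gallein and 6.01, 18.1 and 11.1 CPM in controls. All its gallein samples lay below all controls, as in 5.22% of all genes tested. Of the 22 tested genes of the list, this held for PAX6 alone. The log2 fold change was -1.57 ± 0.83 (SE; adjusted p = 0.779 by edgeR). Which cells the PAX6 RNA came from was not tested. Some of the genes that carry a crystallin name but fall outside the rule, 7 measured, also had single-library excesses. CRYL1, an enzyme gene, was at 335 CPM in gallein replicate 2 and at most 3.17 CPM elsewhere. For crybg1b the level was 598 CPM in gallein replicate 1 and at most 6.74 CPM elsewhere.

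Markers of other tissues were set beside the lens genes in each library. The 60 members summed to 17238, 7145 and 3842 CPM in gallein replicates 1 to 3, against 7266, 2368 and 6495 CPM in control replicates 1 to 3. The photoreceptor list, from the same organ, also holds RPE65 genes, named for the retinal pigment epithelium. Its 19 genes summed to 22428, 5927 and 599 CPM in gallein, against 2326, 15544 and 3651 CPM in controls. Control replicate 2 was thus the lowest library for the lens sum and the second highest for the photoreceptor sum. The lens sum is mostly of beta and gamma crystallins. Control replicate 2 was not the lowest library for lens membrane and cytoskeleton genes, at 203 CPM, or for alpha crystallins, at 2.24 CPM. Of the photoreceptor sum in gallein replicate 1, 20455 CPM came from opn1sw2 alone. Gene by gene, control replicate 2 was the highest library for 12 of the 19 and gallein replicate 1 for 2. Of all 18271 genes tested they were the highest for 2561 and 3161. Skin genes (12) summed to 8431, 4908 and 2110 CPM in gallein, against 10698, 5111 and 1925 CPM in controls. Skeletal muscle genes (16) summed to 3920, 7376 and 1714 CPM in gallein, against 5505, 2967 and 904 CPM in controls. Control replicate 3 was the lowest library for skin and for muscle, while only gallein replicate 1 exceeded it for gamma crystallins. It was however also the lowest library for alpha crystallins and for lens membrane and cytoskeleton genes. The part of these tissues' RNA in the lens values was not tested.

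**Figure D5:**
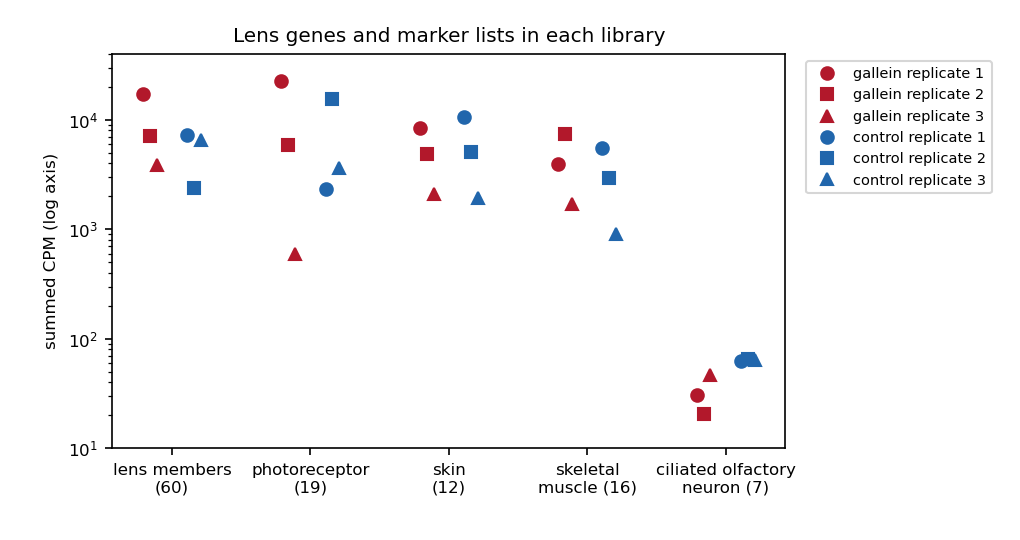
Summed level of the 60 lens members and of marker lists of photoreceptors, skin, skeletal muscle and ciliated olfactory neurons in each library, in CPM on a log axis, with gallein samples in red left of controls in blue. The order of the libraries differs between tissues. Only the sum of the ciliated olfactory neuron genes has all gallein samples (20.7 to 46.5 CPM) below all controls (63.1 to 65.6 CPM). Singly, this held for 3 of its 7 genes, and for 5.22% of all genes tested.

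OMP (ENSDARG00000032380) was at 4.79, 0.192 and 4.99 CPM in gallein replicates, against 13.4, 6.96 and 7.81 CPM in controls. All gallein samples lay below all controls, as in 5.22% of all genes tested, and the log2 fold change was -1.49 ± 1.04 (SE; adjusted p = 0.822 by edgeR). Counted per OMP count in the same library, lens members stood at 3600, 37122.5 and 770 in gallein replicates, against 544, 340 and 832 in controls. Gallein replicate 3 lay within the control range, gallein replicates 1 and 2 lay above it, and the value of gallein replicate 2 rests on 4 OMP counts.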

How the data were processed

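Poly(A)-selected RNA was sequenced from 3 gallein and 3 control samples, and libraries were made with a SPIA amplification kit, per the labels' protocols. The authors deposited raw read counts per gene, 2 files for each sample. TopHat2 2.0.4 and HTSeq were used with build Zv9, per the submitters' processing notes. No source used here gives the annotation release, the counting mode or the strand setting. The 2 files of a sample differed by little more than sampling noise (chi-square per gene, 1 degree of freedom, of 1.34 to 1.67), were summed and count as 1 replicate. The 92 spike-in rows and the 5 rows naming no gene (19.4% to 33.9% of the total) stayed out of library sizes and tests.

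Counts were scaled by TMM and fitted in edgeR 4.0.16 (R 4.3.3), with filterByExpr at a minimum count of 10 and the quasi-likelihood test with robust estimation and no covariate. P-values are two-sided, were adjusted over 18271 genes by Benjamini-Hochberg and were read at 0.05, and they measure only the spread between these samples. Each SE was taken from the fold change and the square root of F. DESeq2 1.42.0, limma 3.58.1 (voom), other scalings and filters, each file alone, a replicate block and each library left out were the alternatives. The steps were tested on simulated data, where known changes were called at a low spread between libraries but not at the spread of these libraries.

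The members and gene lists were chosen with earlier results of these data known. List names were looked up in any letter case, and for names ending in a or b a symbol in capitals lacking that letter was taken too, a choice made after the symbol table was seen. Genes given with their values were the 5 members of each class (10 for gamma) with the highest mean level, the 3 highest and 3 lowest log2 fold changes, the 5 highest genes of the lens development list, of which 1 is not reported here, and OMP. Other genes were named after their values were seen. The RefSeq gene table (GRCz12tu) served only for which protein-coding genes are neighbours.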

Additional observations from a re-analysis of the deposited data

How the results depend on the processing

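Under the 17 alternatives to the test over all genes 0 members were called, and over all genes 0 were called except for 93 by the DESeq2 Wald test. With the replicate block 0 members and 0 genes were called. Same-numbered libraries deviated from their group means with correlations of 0.07, -0.10 and 0.17, and differently numbered ones with -0.24 to 0.16. These values showed no pairing by number, though so few pairs cannot exclude it. Of 477 alternative fits of 30 named genes, 438 kept their direction without passing the threshold and 38 changed direction. The other 1 passed the threshold, SIX3 (ENSDARG00000054879) by DESeq2. Among the 438 are the DESeq2 fits of CRYBA1, PROX1 and HSPB1, which had a direction but no p. Depth limits the 17 members below the filter.

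With spike-in totals the summed log2 differences were -0.80 for alpha, -0.75 for beta, -1.32 for gamma and -0.80 for membrane and cytoskeleton genes. The log2 fold changes that changed sign with spike-in totals were -1.07 for CRYAA, -0.61 for CRYBB1, -1.20 for CRYBA4, -0.41 for cryba1l1, -1.79 for cryba1b, -0.27 for crygm2d2, -1.79 for crygm2d20, -1.53 for crygm2d5, -1.13 for crygm2d11, -1.29 for crygm2d21, -1.20 for crygm2d13, -1.30 for crygm2d17, -0.75 and -0.78 for the MIP genes, -0.91 for LIM2 (ENSDARG00000015445) and -0.11 for lim2.1. By library size alone they were -0.14 for CRYBA4, -0.52 for cryba1b, -0.56 for crygm2d20, -0.43 for crygm2d5, -0.041 for crygm2d11, -0.23 for crygm2d21, -0.10 for crygm2d13 and -0.24 for crygm2d17. Both settings moved the median of all genes, to -1.67 and -0.49.

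With 1 library left out, the genes that changed sign ranged from -0.13 to 0.75 for cryba1b, -1.48 to 0.51 for crygm2d3, -0.14 to 0.46 for crygm2d20, -0.45 to 0.67 for crygm2d5, -0.97 to 1.39 for crygm2d11, -0.69 to 1.03 for crygm2d13, -0.55 to 0.075 for BFSP1, -1.37 to 0.35 for lim2.3, -0.35 to 5.41 for CRYBA1 and -1.84 to 0.72 for HSPB1. The share of gamma crystallins among crystallin counts differed by -9.08 percentage points, from -17.9 to -2.40 with 1 library left out and -13.5 without crygm2d7, an alternative chosen after the data had been seen. The cause of these changes was not tested.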
